A study of Mus musculus with 9 samples.

Results

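The acyl-CoA thioesterase genes *Acot1*, *Acot2*, *Acot3*, *Acot4*, *Acot7*, *Acot8*, *Acot9*, *Acot11*, *Acot12* and *Acot13* were examined by RNA-seq in mouse colonic mucosa. They were chosen by name, 10 genes of the 54146 listed. No measured value entered that rule, but earlier results of these data were known when the genes were chosen. The samples were 9 mice on the C57BL/6J strain, all 15 wk old, of which 5 were ApcMin/+ and 4 were ApcMin/+; p16cis/cis. Both genotypes carried the heterozygous germline *Apc* Min mutation, which gives rise to intestinal adenomas. The ApcMin/+; p16cis/cis mice were in addition homozygous for a knock-in DNA element that promotes spreading of methylation over the *p16* promoter. The RNA came from colonic crypts by the study's methods. Each library was 1 mouse. The knock-in is present in every tissue of the animal, no group lacked the *Apc* mutation, and the sexes were unbalanced, with 2 females and 3 males among ApcMin/+ mice and 3 females and 1 male among ApcMin/+; p16cis/cis mice.

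Acyl-CoA thioesterases hydrolyze the bond between a fatty acid and coenzyme A, which frees the acid and returns the coenzyme. They oppose the acyl-CoA synthetases and so set, with them, how much activated fatty acid is available for oxidation, lipid synthesis and signaling. The type I enzymes *Acot1* to *Acot6* are neighbors in the mouse genome, arose from each other by duplication and differ in where in the cell they work. Several of them are textbook targets of PPARα, the fatty acid-activated nuclear receptor. The type II enzymes, among them *Acot7*, *Acot8*, *Acot9*, *Acot11*, *Acot12* and *Acot13*, are hotdog-fold proteins at separate places in the genome. Colonocytes use fatty acids, butyrate above all, as a main fuel.

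Values are normalized counts, that is, reads on a gene divided by a size factor of the mouse. The libraries held 13523500 to 17885918 reads on genes. In ApcMin/+ mice mitochondrially encoded genes took 12.05% ± 2.87 (SD, n = 5) of reads. In the other genotype they took 24.2% ± 4.41 (SD, n = 4). The genotypes did not overlap, so this share and the genotype cannot be told apart. *Cdkn2a*, the gene that encodes p16, was listed at 0 in all 9 mice and therefore gives no check of the genotype labels. *Xist* and *Ddx3y* matched the labelled sex in 9 of 9 mice. Epithelial markers were abundant, with a summed level over 11 genes of 374271 to 415449 in 4 ApcMin/+ mice, 630131 in ApcMin/+ replicate 4, which stood apart, and 369937 to 422427 in ApcMin/+; p16cis/cis mice. The chloride exchanger *Slc26a3*, a marker of surface colonocytes, was lower without overlap, at −1.23 on the log2 scale (limma, adjusted p = 0.00848). It was 1 of the 11, beside 8.75% of all genes. The other 10 did not pass, and the median of the 11 was −0.30. In 2 of the 11, *Slc26a3* among them, the genotypes did not overlap in this direction, beside 8.95% of all genes tested. These are bulk samples, in which fewer cells of a type and less RNA per cell cannot be told apart.

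The 4 cluster members lie within a short stretch of chromosome 12 on the plus strand and share much of their sequence, which bears on how far their reads can be separated. In GENCODE M21 coordinates (GRCm38), *Acot2* occupies chr12:83987861-83993873, *Acot1* chr12:84009490-84018371, *Acot4* chr12:84038379-84048601 and *Acot3* chr12:84052144-84060402. The coding sequences of *Acot1* and *Acot2* were identical at 95.6% of 1236 aligned bases, with a longest identical stretch of 273 bases. *Acot4* was more distant, at 74.8% identity to *Acot1* and 75.4% to *Acot2*, and *Acot3* lay between, at 84.0% to *Acot1*. Because divergence is uneven along the genes, the following stretch of 90 coding bases near the 5′ end is shown for the 4 genes, a place where even *Acot4* differs from *Acot1* at only 2 bases. Capitals mark bases that differ from *Acot1*, of which there are 4 in *Acot2* and 14 in *Acot3*. The stretches are coding sequence on the plus strand of GRCm38, at chr12:84009539-84009628 for *Acot1*, chr12:83988054-83988143 for *Acot2*, chr12:84038540-84038629 for *Acot4* and chr12:84053514-84053603 for *Acot3*.
Acot1: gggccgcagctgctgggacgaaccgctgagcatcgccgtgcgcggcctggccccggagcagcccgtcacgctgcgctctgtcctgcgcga
Acot2: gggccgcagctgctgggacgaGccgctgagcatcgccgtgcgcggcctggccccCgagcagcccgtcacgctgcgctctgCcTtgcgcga
Acot4: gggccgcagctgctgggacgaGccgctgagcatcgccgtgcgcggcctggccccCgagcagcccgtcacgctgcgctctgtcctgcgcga
Acot3: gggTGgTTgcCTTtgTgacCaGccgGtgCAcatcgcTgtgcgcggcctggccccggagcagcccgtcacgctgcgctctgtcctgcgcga

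**Figure D1:**
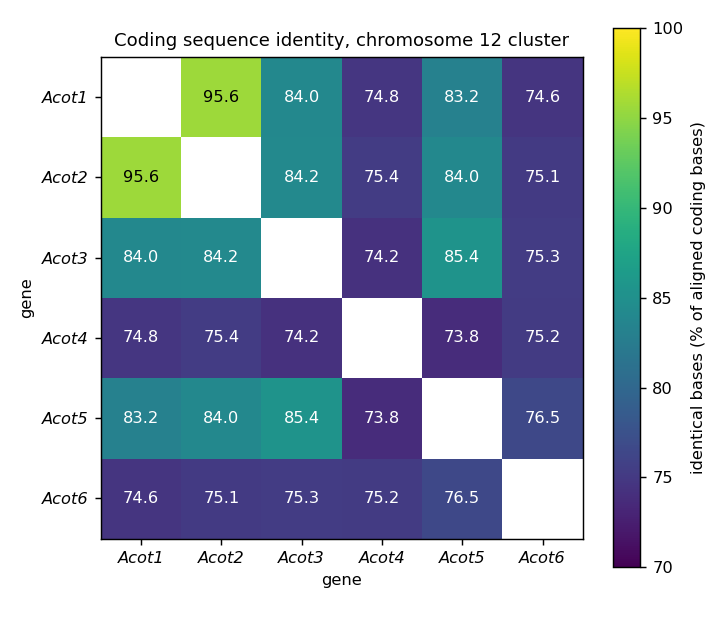
Percent of aligned coding bases that are identical between each pair of the 6 genes of the chromosome 12 cluster, with genes on both axes and the color scale running from 70 to 100%. The *Acot1* and *Acot2* pair stands out at 95.6%, and *Acot4* is at 73.8 to 75.4% to every other gene.

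Overlapping windows of 100 bases, about the scale of a short read, were taken from every starting base of each transcript. A window was called shared where the same letters occur in a transcript of another gene on either strand. Shared windows made up 21.9% of *Acot1*, 17.1% of *Acot2*, all of the latter with *Acot1*, and 16.6% of *Acot3*. For *Acot4* the share was 8.85%, nearly all of it with the antisense transcript 4732463B04Rik, which overlaps it on the other strand and had normalized counts of 11.2 to 19.1 in ApcMin/+ mice and 0 to 9.57 in ApcMin/+; p16cis/cis mice. The read length and the strandedness of the libraries are not given in the sources used here, so reads of *Acot4* and of that antisense gene cannot be told apart where they overlap. *Acot7* and *Acot13* had 0% shared windows, also with windows of 50 bases. At 50 bases the shares were larger, 33.6% of *Acot1*, 27.7% of *Acot2*, 21.7% of *Acot3* and 14.4% of *Acot4*. Those of *Acot4* were still mostly with 4732463B04Rik, but some were with *Acot6*, *Acot5* and *Acot3*. *Acot9* shared 20.2% with *Acot10* at 50 bases and 0.968% at 100. At 100 bases *Acot8* shared 13.8% of its windows with *Snx21* and *Acot11* shared 23.1% with *Fam151a*, both on the opposite strand. *Fam151a* was at most at 0.976 in any mouse. *Snx21* was at 230 to 354, so reads of *Acot8* and *Snx21* cannot be told apart where they overlap. For *Acot1* and *Acot2* the values therefore depend on how the authors' counting divided common reads, and they are given below also as a sum.

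Of the 10 genes, 8 reached 10 normalized counts in 4 mice or more and were tested, and each of those was above 10 in all 9 mice. With limma and Benjamini-Hochberg adjustment over all 14410 genes tested, 1 of the 8 was lower in ApcMin/+; p16cis/cis mice, namely *Acot4*, where 8.75% of all genes were. The higher genes were 2 of the 8, *Acot7* and *Acot13*, where 8.14% of all genes were. Counting both directions, 3 of the 8 were called, beside 16.9% of all genes. At an unadjusted p under 0.05 stood 3 of the 8 and 33.2% of all genes. The other 5 did not pass. With the study's further condition of a fold change over 2, *Acot4* alone remained, and by that rule 1.64% of all genes were lower and 1.83% higher. The study's methods also name DESeq2 and a Bonferroni adjustment, so this rule is less strict than theirs. By Bonferroni adjustment in limma 0 of the 8 passed, and 27 of all genes did. The median log2 fold change of the 8 was −0.21, beside −0.004 over all genes tested. *Acot3* and *Acot12* were below the filter and are described by their reads.

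**Figure D2:**
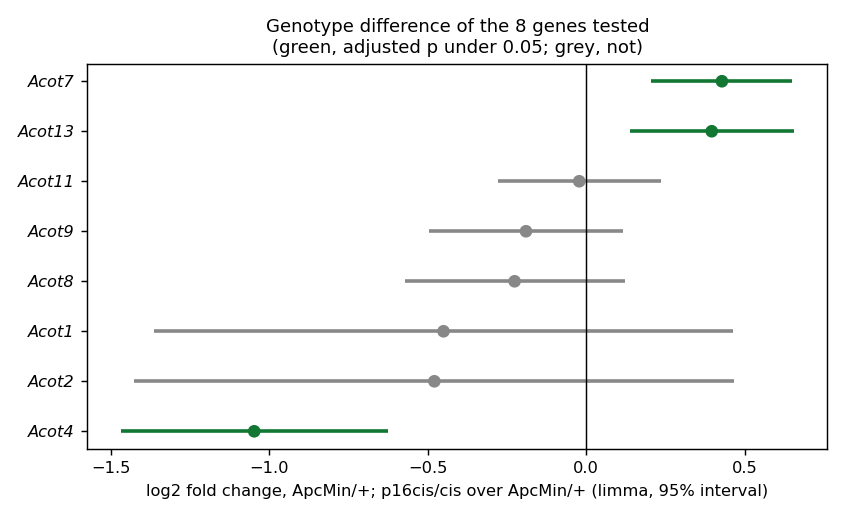
Log2 fold change of ApcMin/+; p16cis/cis over ApcMin/+ mice for the 8 tested genes, with points for the limma estimate, lines for its 95% interval and green for an adjusted p-value under 0.05. *Acot4* lies to the left of 0, *Acot7* and *Acot13* to the right, and the intervals of *Acot1* and *Acot2* are the widest, from about −1.4 to about 0.5.

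*Acot4*, a peroxisomal enzyme known for succinyl-CoA and the CoA esters of dicarboxylic acids, was lower by about 2-fold in ApcMin/+; p16cis/cis mice. Its normalized counts in ApcMin/+ replicates 1 to 5 were 288, 295, 437, 453 and 242. In ApcMin/+; p16cis/cis replicates 1 to 4 they were 174, 163, 143 and 163. All 4 ApcMin/+; p16cis/cis mice were below all 5 ApcMin/+ mice, a separation in this direction that 8.95% of the tested genes had. The means were 343 ± 95.5 (SD, n = 5) and 161 ± 13.1 (SD, n = 4), a log2 fold change of −1.05 ± 0.19 (SE) with a 95% interval of −1.47 to −0.63 (limma, adjusted p = 0.00656). *Acot4* was called with each mouse left out in turn, in 9 of 9 fits, and without ApcMin/+ replicate 4 it was at −0.94 (limma, adjusted p = 0.00424). With females only the log2 fold change was −0.76 (limma, adjusted p = 0.0726), and with the mitochondrial share as a covariate it was −0.62 (limma, adjusted p = 0.849). Of all genes 898 were called with females only and 0 with the mitochondrial share, so a lost call there is not particular to *Acot4*.

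The spread within a genotype was itself unequal. Among ApcMin/+ mice, replicates 3 and 4 stood above the others, whereas the ApcMin/+; p16cis/cis mice stayed between 143 and 174.

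*Acot1*, the cytosolic long-chain enzyme, and *Acot2*, its mitochondrial counterpart, did not pass the test. *Acot1* was at 104, 113, 278, 376 and 81.7 in ApcMin/+ replicates 1 to 5 and at 152, 148, 82.6 and 97.1 in ApcMin/+; p16cis/cis replicates 1 to 4. *Acot2* was at 102, 148, 369, 455 and 90.8, and at 126, 155, 111 and 149, in the same order. The genotypes overlapped for both genes, and the same ApcMin/+ mice, replicates 3 and 4, both male, held the highest values of each. The remaining ApcMin/+ mice were replicate 2, also male, and replicates 1 and 5, both female. They lay between 81.7 and 113 for *Acot1* and between 90.8 and 148 for *Acot2*, within or below the range of the other genotype. The log2 fold change was −0.45 ± 0.42 (SE) for *Acot1*, with a 95% interval of −1.36 to 0.46 (limma, adjusted p = 0.491). For *Acot2* it was −0.48 ± 0.44 (SE), with an interval of −1.43 to 0.47 (limma, adjusted p = 0.480). The intervals include both a change as large as that of *Acot4* and no change. Without ApcMin/+ replicate 4, which stood apart in its epithelial markers, the log2 fold changes were −0.14 and −0.16. In females only the estimates had the opposite sign, at 0.20 for *Acot1* and 0.51 for *Acot2*. A genotype-by-sex interaction term in limma, added after seeing the data, gave −1.71 (male minus female effect on the log2 scale) for *Acot2* (limma, adjusted p = 0.722). It rests on the 1 male ApcMin/+; p16cis/cis mouse.

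*Acot3*, a peroxisomal long-chain enzyme, was barely detected. It had 9 reads in all ApcMin/+ mice together, at normalized counts of 0, 0.951, 5.85, 2.54 and 0 in replicates 1 to 5, and was listed at 0 in every ApcMin/+; p16cis/cis mouse. A count of 0 allows up to 3 reads per library, so no fold is given.

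Summed over *Acot1* to *Acot4*, which removes the question of how shared reads were split within the group, normalized counts were 493, 557, 1090, 1286 and 414 in ApcMin/+ replicates 1 to 5. The sums were 452, 466, 337 and 409 in ApcMin/+; p16cis/cis replicates 1 to 4. The genotypes overlapped, through ApcMin/+ replicate 5. The mean sums were 768 ± 393 (SD, n = 5) and 416 ± 58.1 (SD, n = 4), and the difference of log2 means was −0.75, ranging from −0.93 to −0.52 when each mouse was left out in turn.

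The make-up of the cluster differed between mice. *Acot4* provided 58.4, 52.9, 40.1, 35.2 and 58.4% of the summed counts in ApcMin/+ replicates 1 to 5 and 38.5, 34.9, 42.4 and 39.8% in ApcMin/+; p16cis/cis replicates 1 to 4. Among ApcMin/+ mice its share was lowest in the 2 with the highest sums, where *Acot1* and *Acot2* stood above the other ApcMin/+ mice by a larger factor than *Acot4* did. The ratio of *Acot1* to *Acot2* stayed between 0.754 and 1.02 in ApcMin/+ mice. In the other genotype it ran from 0.653 to 1.20. Across the 9 mice Pearson's r of the log2 values was 0.94 for *Acot1* with *Acot2*, genes that share reads, and 0.70 for *Acot4* with either. After the genotype means were removed the last 2 were 0.97 and 0.96.

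**Figure D3:**
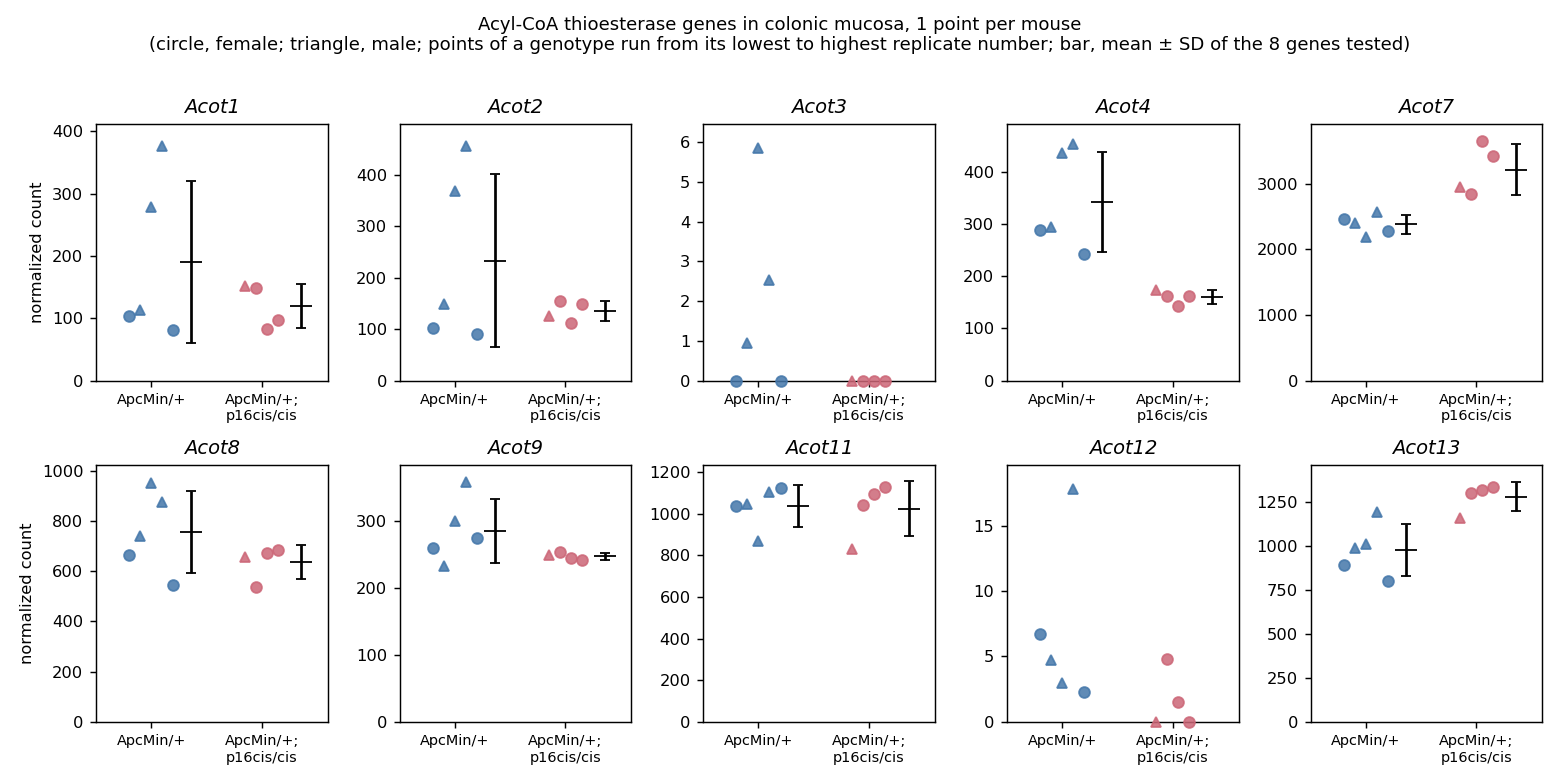
Normalized counts of the 10 acyl-CoA thioesterase genes, 1 point per mouse, with circles for females, triangles for males and black bars for the mean ± SD (n = 5 ApcMin/+ and n = 4 ApcMin/+; p16cis/cis, not drawn for *Acot3* and *Acot12*). Only *Acot4* and *Acot7* show no overlap, and 2 of the 3 male ApcMin/+ mice carry the high values of *Acot1* and *Acot2*.

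*Acot7*, the cytosolic long-chain enzyme first known as brain acyl-CoA hydrolase, was higher in ApcMin/+; p16cis/cis mice. The gene lies at chr4:152178134-152271855 on the plus strand. Normalized counts were 2467, 2400, 2189, 2566 and 2285 in ApcMin/+ replicates 1 to 5. In ApcMin/+; p16cis/cis replicates 1 to 4 they were 2954, 2841, 3651 and 3424. The lowest of these exceeded the highest ApcMin/+ value, a separation that 7.24% of tested genes had in this direction. The means were 2382 ± 148 (SD, n = 5) and 3218 ± 384 (SD, n = 4), a log2 fold change of 0.43 ± 0.10 (SE) with an interval of 0.21 to 0.65 (limma, adjusted p = 0.0168). The call was lost without ApcMin/+ replicate 3 (limma, adjusted p = 0.0506) and without ApcMin/+; p16cis/cis replicate 4 (limma, adjusted p = 0.0548), and was kept in the other 7 fits. Once GC content and transcript length were corrected for, the log2 fold change was 0.21 (limma, adjusted p = 0.139). The call was also lost with females only, at 0.47 (limma, adjusted p = 0.0961), and with the mitochondrial share as a covariate, at 0.46 (limma, adjusted p = 0.848).

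*Acot13*, the small mitochondria-associated enzyme also called Them2, moved the same way. The gene is at chr13:24817948-24831540 on the minus strand. It was at 893, 987, 1011, 1194 and 800 in ApcMin/+ replicates 1 to 5 and at 1155, 1300, 1316 and 1335 in ApcMin/+; p16cis/cis replicates 1 to 4. The genotypes overlapped only in that ApcMin/+ replicate 4 was above ApcMin/+; p16cis/cis replicate 1. The means were 977 ± 147 (SD, n = 5) and 1277 ± 82.0 (SD, n = 4), a log2 fold change of 0.40 ± 0.12 (SE) with an interval of 0.14 to 0.66 (limma, adjusted p = 0.0404). This call was kept in only 2 of the 9 fits with a mouse left out, those without ApcMin/+ replicate 4 and without ApcMin/+; p16cis/cis replicate 1, and the adjusted p-value from limma ranged from 0.00867 to 0.104. With the GC content and length correction the log2 fold change fell to 0.09 (limma, adjusted p = 0.498), and with the mitochondrial share as a covariate it was 0.49 (limma, adjusted p = 0.848). In the fit with the mitochondrial share 0 of all genes were called.

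*Acot8*, a peroxisomal enzyme of broad acyl-CoA specificity located at chr2:164792765-164804882 on the minus strand, was at 666, 742, 952, 877 and 544 in ApcMin/+ replicates 1 to 5. It was at 655, 536, 672 and 685 in ApcMin/+; p16cis/cis replicates 1 to 4. The groups overlapped, and the log2 fold change was −0.23 ± 0.16 (SE) with an interval of −0.57 to 0.12 (limma, adjusted p = 0.354). *Acot8* is the gene for which the correction for GC content and length made a call, at −0.44 (limma, adjusted p = 0.0452), while the sign was opposite in females only, at 0.06.

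*Acot9*, a mitochondrial enzyme encoded at chrX:155262443-155297654, had means of 285 ± 47.8 (SD, n = 5) and 247 ± 5.30 (SD, n = 4). Its values ran from 233 to 358 in ApcMin/+ mice and from 241 to 254 in ApcMin/+; p16cis/cis mice, so that the second range lay inside the first. The log2 fold change was −0.19 ± 0.14 (SE) with an interval of −0.50 to 0.12 (limma, adjusted p = 0.378).

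*Acot11*, known as Them1 and studied mainly in brown fat, lies at chr4:106744555-106804998 on the minus strand and was nearly equal in the genotypes. It was at 1038, 1047, 870, 1105 and 1124 in ApcMin/+ replicates 1 to 5 and at 831, 1042, 1095 and 1128 in ApcMin/+; p16cis/cis replicates 1 to 4. The log2 fold change was −0.02 ± 0.12 (SE), and its interval of −0.28 to 0.24 (limma, adjusted p = 0.921) leaves room for a moderate difference either way.

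*Acot12*, a cytosolic acetyl-CoA hydrolase best known from liver and encoded at chr13:91741512-91786148, was rare. It had 30 reads in all ApcMin/+ mice and 4 in all ApcMin/+; p16cis/cis mice. Normalized counts were 6.70, 4.75, 2.93, 17.8 and 2.27 in the first and 0, 4.79, 1.503 and 0 in the second. The high value belonged to ApcMin/+ replicate 4, which was also the highest ApcMin/+ mouse for *Acot1*, *Acot2*, *Acot4*, *Acot7*, *Acot9* and *Acot13*.

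To compare the genes with each other, normalized counts were divided by the length in kb of the longest coding transcript. *Acot7* came first, at 1582 ± 98.7 per kb (SD, n = 5) in ApcMin/+ mice. Its level was 2138 ± 255 per kb (SD, n = 4) in the other genotype. *Acot13* was next, at 1355 ± 204 and 1771 ± 114 per kb. *Acot8* followed at 656 and 553 per kb, then *Acot11* at 182 and 180 and *Acot9* at 163 and 141. The cluster genes came after these, *Acot2* at 106 and 61.6 per kb, *Acot1* at 83.9 and 52.8 and *Acot4* at 55.3 and 25.9, and *Acot12* and *Acot3* were last, at 2.25 and 0.545 per kb in ApcMin/+ mice.

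This order was the same in both genotypes. In ApcMin/+ mice the ranges per kb of the neighbors from *Acot11* down to *Acot4* overlapped, as did those of *Acot7* and *Acot13* and those of *Acot12* and *Acot3*. Within single mice, *Acot7* was nevertheless above *Acot13*, and *Acot2* above *Acot1*, in 5 of 5. In ApcMin/+; p16cis/cis mice only the ranges of *Acot2* and *Acot1*, and of *Acot12* and *Acot3*, overlapped, and *Acot2* was above *Acot1* in 3 of 4 mice. The order depends on the length used. Over all exonic bases of a gene *Acot13* came before *Acot7* in both genotypes, and *Acot4* came before *Acot1* in ApcMin/+ mice.

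Added over the 10 genes, normalized counts came to 6211 ± 752 (SD, n = 5) in ApcMin/+ mice. They came to 6820 ± 525 (SD, n = 4) in ApcMin/+; p16cis/cis mice. The balance within that sum differed more than the sum. *Acot7* made up 34.1 to 42.4% of it in ApcMin/+ mice and 44.1 to 49.9% in ApcMin/+; p16cis/cis mice, with no overlap. The 4 cluster genes made up 7.61 to 17.4% in the first and 4.60 to 7.23% in the second, also with no overlap. These shares follow from the counts of *Acot7* and of the cluster genes, *Acot1* and *Acot2* among them, given above and are not separate evidence.

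**Figure D4:**
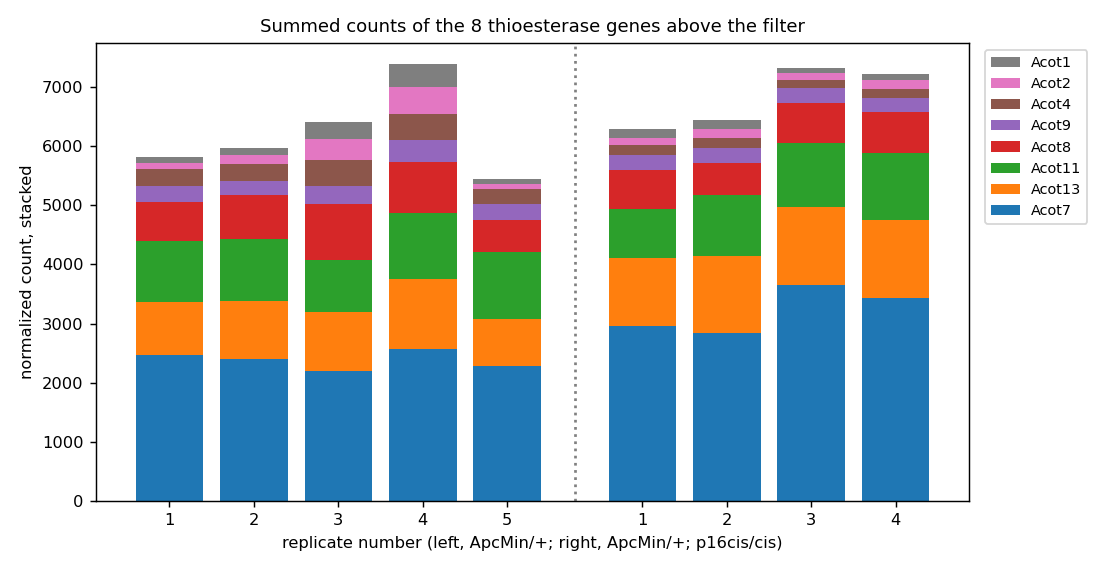
Stacked normalized counts of the 8 tested thioesterase genes in each mouse, by replicate number, with ApcMin/+ mice at left and ApcMin/+; p16cis/cis mice at right of the dotted line. *Acot7*, at the base of each bar, reaches 2189 to 2566 at left and 2841 to 3651 at right, and the thin layers of *Acot4*, *Acot2* and *Acot1* at the top are widest in ApcMin/+ replicates 3 and 4.

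PPARα and its textbook targets outside the family were set beside the cluster. Of 34 genes in this list 29 were tested, 18 passed the test (limma), each of them lower in ApcMin/+; p16cis/cis mice, where 8.75% of all genes were lower, with a median log2 fold change of −0.64 beside −0.004 over all genes. The peroxisomal thiolase gene *Acaa1b* fell by 3.39 on the log2 scale (limma, adjusted p = 0.0032) and *Angptl4*, an inhibitor of lipoprotein lipase, fell by 3.32 (limma, adjusted p = 0.0104). At the other end of the 18 were the carnitine octanoyltransferase gene *Crot*, at −0.46 (limma, adjusted p = 0.0299), and the dienoyl-CoA reductase gene *Decr1*, at −0.38 (limma, adjusted p = 0.0272). *Ppara* itself was at 220 ± 52.8 (SD, n = 5) and 101 ± 31.9 (SD, n = 4), a log2 fold change of −1.15 (limma, adjusted p = 0.0111). Earlier results of these data had shown lipid genes lower in this genotype, so the count is not independent support.

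The mean deviation of the 29 list genes from their average over the 9 mice was −0.02, 0.26, 0.78, 1.09 and 0.03 on the log2 scale in ApcMin/+ replicates 1 to 5. It was −0.49, −0.54, −0.59 and −0.52 in ApcMin/+; p16cis/cis replicates 1 to 4. ApcMin/+ replicates 3 and 4 were thus highest for this list as for *Acot1*, *Acot2* and *Acot4*. The genes parted in the remaining ApcMin/+ mice. In replicates 1 and 5 *Acot4* deviated by 0.26 and 0.01, whereas *Acot1* was at −0.41 and −0.75 and *Acot2* at −0.66 and −0.82. For *Acot2* both of these were below all 4 ApcMin/+; p16cis/cis mice, which ran from −0.53 to −0.06.

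**Figure D5:**
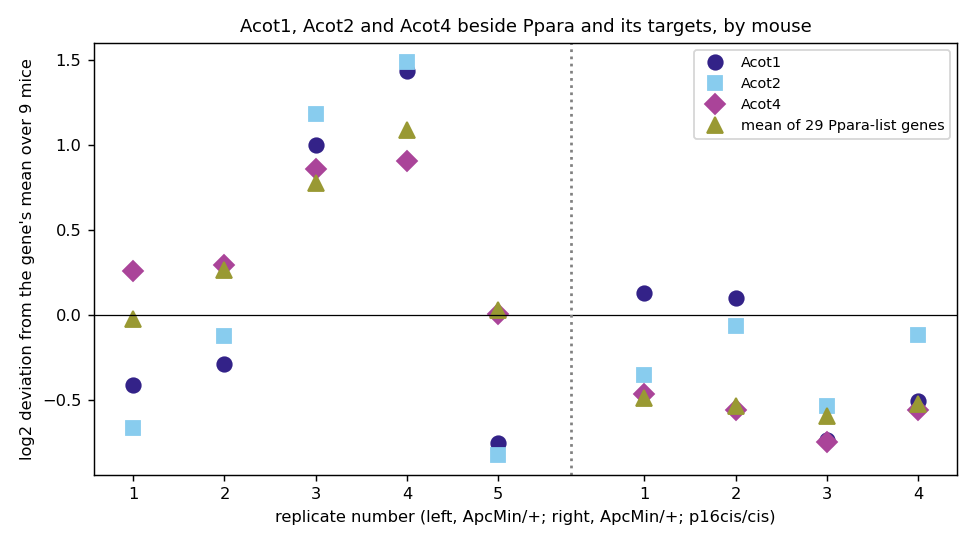
Log2 deviation from the gene's mean over 9 mice for *Acot1*, *Acot2* and *Acot4*, and the mean deviation of 29 genes of PPARα and its targets, by replicate number, with ApcMin/+ mice at left and ApcMin/+; p16cis/cis mice at right. All 4 series peak in ApcMin/+ replicates 3 and 4, and *Acot4* stays at or above 0 in every ApcMin/+ mouse while *Acot1* and *Acot2* drop below 0 in replicates 1, 2 and 5.

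PPARα binds as a heterodimer to direct repeats of AGGTCA spaced by 1 base. This arrangement, a copy of AGGTCA, any base and a further copy, was searched on both strands, allowing 2 mismatches in its 12 defined bases, in RefSeq windows from 250 bases before to 50 bases after each gene's start. Of the 9 members with a window, 2 held a match, where 3.86% of 32851 windows in all did. Members were counted by gene and the share over all was counted by window. In *Acot4* the match had 2 mismatches, lay on the minus strand and ended at the start site, and in *Acot12* it had 1 mismatch. The 250 bases before the start are shown for *Acot4*, the called gene, with the match in capitals, and for *Acot2*, which has no match. They lie on the plus strand of GRCm38.p6 at chr12:84038129-84038378 and chr12:83987611-83987860.
Acot4: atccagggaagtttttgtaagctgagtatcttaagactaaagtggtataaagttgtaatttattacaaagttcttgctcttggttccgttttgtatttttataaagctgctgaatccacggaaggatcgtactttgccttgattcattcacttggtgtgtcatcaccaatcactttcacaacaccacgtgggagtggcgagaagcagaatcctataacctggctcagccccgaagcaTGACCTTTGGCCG
Acot2: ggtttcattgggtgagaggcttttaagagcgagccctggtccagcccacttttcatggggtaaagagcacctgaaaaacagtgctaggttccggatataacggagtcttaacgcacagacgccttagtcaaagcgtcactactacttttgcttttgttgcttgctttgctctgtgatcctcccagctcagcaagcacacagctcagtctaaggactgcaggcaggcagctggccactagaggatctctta

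In contrast to the coding sequences, the 2 windows had no identical stretch longer than 7 bases in an end-to-end alignment, and those of *Acot1* and *Acot2* none longer than 5. A match describes letters only, and no binding was measured here.

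The genes most like *Acot4* in their pattern over the 9 mice, among all 14410, were *Cyp4b1* (Pearson's r = 0.99), *Slc22a5*, *Acaa1b*, *Ces2a* and *Etfdh* (each r = 0.98). *Slc22a5*, the carnitine transporter, was at 584 ± 132 (SD, n = 5) and 337 ± 18.0 (SD, n = 4), and *Etfdh*, which passes electrons from fatty acid oxidation to the respiratory chain, at 2434 ± 467 and 1389 ± 163. *Cyp4b1*, a cytochrome P450, was at 1455 ± 942 and 115 ± 38.6. Those most like *Acot7* were *Copz1* (r = 0.99), a coat protein of Golgi vesicles, *Fpgs*, which adds glutamates to folates (r = 0.98), *B3gnt7* (r = 0.98), *Creb3l1* and *Mrps15* (each r = 0.97). *B3gnt7*, a glycosyltransferase, was at 15661 ± 2432 (SD, n = 5) and 26201 ± 3489 (SD, n = 4). These coefficients combine the genotype difference with the variation between mice. For *Acot4* and *Acot7* with each other r was −0.80 over the 9 mice and −0.11 after the genotype means were removed.

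Other thioesterases were called about as often as genes in general. Of 15 such genes 10 were tested, with 1 lower and 1 higher, beside 8.75% and 8.14% of all genes, and a median log2 fold change of 0.10 beside −0.004. *Lypla1*, a protein depalmitoylase, fell by 1.20 on the log2 scale (limma, adjusted p = 0.000546), and its paralog *Lypla2* was higher by 0.54 (limma, adjusted p = 0.0296). The 3 relatives of the members in this list did not pass or were not tested. *Acot6*, of the chromosome 12 cluster, was at 55.0 ± 6.996 (SD, n = 5) and 71.5 ± 11.6 (SD, n = 4), at a log2 fold change of 0.37 (limma, adjusted p = 0.244), and *Acot5* and *Acot10* stayed at or under 10.2 and 1.90 in every mouse.

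Acyl-CoA synthetases, which run the opposing reaction, were tested for 13 of 23 genes. Of these 1 passed, *Acsl3*, which was lower at −0.70 (limma, adjusted p = 0.0112), beside 8.75% of all genes, and the median was −0.16. Among genes for the supply, transport and binding of CoA and its esters, 18 of 21 were tested, with 6 lower and 2 higher, beside 8.75% and 8.14% of all genes, and a median of −0.14. *Vnn1*, the pantetheinase that returns pantothenate from CoA breakdown, fell by 2.51 on the log2 scale (limma, adjusted p = 0.00404), and the pantothenate kinase *Pank3* fell by 1.02 (limma, adjusted p = 0.00155). The higher ones were the acyl-CoA binding protein *Acbd4*, at 0.62 (limma, adjusted p = 0.0299), and the CoA synthesis enzyme *Ppcdc*, at 0.47 (limma, adjusted p = 0.0375).

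Markers of other cells were measured beside these results. The summed level of 10 immune markers was 172 to 1810 in ApcMin/+ and 345 to 540 in ApcMin/+; p16cis/cis mice, and 9 were tested, with a median log2 fold change of −0.70. The plasma cell gene *Jchain* was lower, at −2.65 (limma, adjusted p = 0.0175), as was *Lyz2*, a lysozyme of myeloid cells, at −1.56 (limma, adjusted p = 0.00745) without overlap. These were 2 of the 9, beside 8.75% of all genes, and the other 7 did not pass. The highest estimate was that of *Cd68*, at 0.85 (limma, adjusted p = 0.0903), among those that did not pass. The 10 stromal, muscle and vessel markers summed to 255 to 847 and 205 to 372, and over the 9 tested the median was −1.44. Of these the collagen gene *Col3a1* was lower, at −2.92 (limma, adjusted p = 0.0414), 1 of the 9, beside 8.75% of all genes. The other 8 did not pass. ApcMin/+ replicate 4 held the lowest ApcMin/+ sum of both lists, beside the highest epithelial sum.

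Of the 8 adipocyte markers the summed level was 137 to 451 and 55.6 to 90.2, without overlap, but 6 of the 8 were under 10 in every mouse and the defining *Lep* was at 0. *Cidec* provided most of that sum and was lower by itself, at −1.69 (limma, adjusted p = 0.0132). Of 5 liver markers the summed level was 1007 to 1962 and 1773 to 2086, with *Serpina1a* and *Fgb* at 0. The carrier genes *Apoa2*, at 1.10 (limma, adjusted p = 0.0237), and *Ttr*, at 0.63 (limma, adjusted p = 0.0384), were higher. These were 2 of the 3 tested, beside 8.14% of all genes, and the other 1 did not pass. The part of other cells in the thioesterase values was not tested.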

How the data were processed

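RNA-seq libraries of 9 mice were sequenced on the BGISEQ-500, and according to the study's methods reads were aligned with BOWTIE2, quantified with RSEM and normalized with DESeq2. Tool versions, genome build, annotation, read length and strandedness are not given in the sources used here. The authors deposited signal values, namely counts per gene scaled by that mouse's size factor, for 54146 genes. Of the positive values 100% were whole multiples of 1 read per mouse to within 0.01 reads, and 13523500 to 17885918 reads per mouse were recovered. The precision of low values is limited by counting, and floors of 3 reads cover counting error only.

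Genotypes were compared on log2(normalized count + 1) with limma 3.58.1 (R 4.3.3, trended variances), with no term but genotype, over the 14410 genes with at least 10 in at least 4 mice, and Benjamini-Hochberg adjustment over all of them. A call is an adjusted p-value under 0.05, which 2434 genes (16.9%) met. On the recovered reads edgeR 4.0.16 called 2467 genes and DESeq2 1.42.0 called 3251. Fold changes are on the log2(value + 1) scale, which understates changes of low genes. The procedure was tested on simulated data.

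Coordinates, transcripts and lengths are from GENCODE M21 (GRCm38), in which 54079 of 54146 identifiers and all 10 members were found. Coding sequences were aligned with Biopython 1.88. Promoter windows are from RefSeq (GRCm38.p6), where 9 of the 10 members matched. Protein sequences were not used here.

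All members are named. From each gene list at most 4 genes are named, the called genes with the 2 lowest and 2 highest fold changes. *Ppara*, *Acot5*, *Acot6*, *Acot10*, *Cd68* and the markers listed at 0 (*Lep*, *Serpina1a*, *Fgb*) are named outside this rule. Likeness is Pearson's r of log2 values over 9 mice, for the called members with the lowest and highest fold change. The members, lists and tests were chosen with earlier results of these data known. No source says whether mice with the same replicate number were related, so these numbers were not used as pairs. Each mouse is 1 sample, and whether mice were littermates or housed together is not given in the sources used here. The alternatives were count tests, other scalings, pseudocounts and filters, sex and the mitochondrial share as covariates, females only, a replicate block, a correction for GC content and length (loess per mouse, span 0.5), other thresholds and leaving out each mouse. The genotype-by-sex interaction was added after seeing the data.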

Additional observations from a re-analysis of the deposited data

Results flagged for a closer look

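Within each genotype the value of every member and of the cluster sum was compared with the rest of its group, in 22 groups, of which chance alone would flag about 1.1. A single value stood apart. *Acot12* in ApcMin/+ replicate 4 had a normalized count of 17.8, against 2.27 to 6.70 in the other ApcMin/+ mice, and its gap to the nearest mouse was 0.715 of the group's range, beside a critical value of 0.71. *Acot12* was too low to be tested between the genotypes. For the 8 tested genes the genotype-by-sex interaction had adjusted p-values in limma of 0.722 to 0.940, and 2 of the 8 had an unadjusted p under 0.05, *Acot2* (0.0267) and *Acot13* (0.0376).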

How the results depend on the processing

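Of 200 fold changes of the 8 tested genes under 25 alternatives, 161 kept direction and side of the threshold, 26 kept direction and lost the call, 2 gained a call and 11 changed sign. The count of lower members was 1, and the count of higher members 2. Lower members numbered 0 with females only, with the mitochondrial share as a covariate and by Bonferroni adjustment, and 2 (*Acot4* and *Acot8*) with the GC content and length correction, alone or with the replicate block. Over all genes the calls fell from 2434 to 898 with females only, 0 with the mitochondrial share and 27 by Bonferroni adjustment. With the GC content and length correction they fell to 1823, and to 1389 with the block as well. Higher members numbered 1 with no filter, with sex as a covariate, with females only and with the replicate block. They numbered 0 with the GC content and length correction, the same with the block, the mitochondrial share as a covariate, a fold change over 2 and Bonferroni adjustment. All genes called were 1920 with no filter, 1437 with sex as a covariate, 2074 with the replicate block and 501 with a fold change over 2. For higher members, leaving out each mouse gave 0 to 2, with 0 in limma without ApcMin/+ replicate 3 and without ApcMin/+; p16cis/cis replicate 4, although 2 of them had an unadjusted p under 0.05 in both fits. Those 2 fits called 1287 and 1183 of all genes. By unadjusted p in limma, 1 lower and 2 higher members passed with females only, and 0 and 0 with the mitochondrial share as a covariate. edgeR and DESeq2 each called 1 lower and 2 higher.

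The sign turned for *Acot1* (0.20), *Acot2* (0.51), *Acot8* (0.059) and *Acot11* (0.010) in females only, and for *Acot1* (0.38), *Acot2* (0.43) and *Acot8* (0.38) with the mitochondrial share as a covariate. *Acot11*, near 0 throughout, also turned with the replicate block (0.0086), and leaving out each mouse gave −0.084 to 0.075, with the sign turned without ApcMin/+ replicate 4 (0.0024) or 5 (0.0086) and without ApcMin/+; p16cis/cis replicate 1 (0.075). The cause was not tested.

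The replicate numbers share only a number. Same-numbered mice correlated in their deviations at −0.18, 0.07, 0.05 and 0.14, and 2 of 4 correlated best with their own number. With the replicate block, which drops ApcMin/+ replicate 5 for want of a partner, *Acot13* was at 0.33 (limma, adjusted p = 0.0599), and all genes called went from 2434 to 2074.

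The GC content and length correction left 933 lower and 890 higher calls among all genes, TMM scaling 1305 and 1123, and the median of all genes moved by no more than 0.011 under either. Depth limited *Acot3* and *Acot12*. With no filter neither passed in limma (adjusted p = 0.233 for *Acot3* and 0.155 for *Acot12*), and their reads are too few for a fold.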
